A study of Homo sapiens with 9 samples.

Results

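The 3 libraries described here are those of the control siRNA (si-NC), prepared 48 h after cells labelled MDA-MB-453, an established human breast cancer cell line, were transfected by lipofection. They are 3 of the 9 libraries of the study, whose other 6 carry si-LINC00673-1 or si-LINC00673-2 against the long noncoding RNA LINC00673 and were not analysed here. All 3 libraries carry the same label and the same control siRNA, and no untransfected cells are among the groups, so the levels below are those of transfected cultures. The members were the 17089 known genes among the 19930 genes of the deposited table, the other 2841 being predicted genes that were left out. The libraries are named by their suffix: no suffix, r1 and r2, and 3 values in a row follow that order. Levels are in FPKM, a fragment count divided by transcript length and by library size, which is per length and so lets genes be set beside each other. A mean of at least 1 FPKM was taken as detected. Of the known genes, 67.1% were detected, and every count of detected genes in a list or family is to be read beside that share. Values are given as mean ± SD (n = 3). Nothing in the labels says that the libraries came from separate cultures, so the SD may be a technical spread.

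Luminal cells of the mammary gland line the ducts and make the keratin pair KRT8 and KRT18, and their identity rests on the transcription factors GATA3 and FOXA1. FOXA1 is a pioneer factor that opens chromatin for steroid hormone receptors such as the oestrogen receptor (ESR1). MDA-MB-453 is known as a line of luminal type, with FOXA1 and without ESR1.

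The luminal keratins and the low ESR1 went with the label and FOXA1 did not, while GATA3, given below, was below detection. KRT8 and KRT18 are keratins of simple epithelia in general, and a low ESR1 is not particular to this line. Neither therefore identifies it. KRT8 stood at 3773, 3457 and 3621 FPKM and KRT18 at 2509, 2343 and 2448 FPKM. FOXA1, on chromosome 14 from 38058757 to 38064325 of GRCh37, stood at 0.01, 0 and 0 FPKM. ESR1 stood at 0.01, 0.01 and 0.01 FPKM. By the depth estimated below, the FOXA1 values amount to 1, 0 and 0 fragments, and the FPKM of 3 fragments in the shallowest library was 0.0355 for FOXA1, so the gene did not rise above that limit. None of the 50-base windows of the longest FOXA1 transcript occurs in a transcript of another gene. The fifth marker, ERBB2, a receptor tyrosine kinase, stood at 17.8, 17.3 and 17.8 FPKM, a level that 77.1% of the known genes fell below. The libraries are therefore called by their label, libraries labelled MDA-MB-453, without the luminal identity being taken from it. The cause of the difference from the label was not tested. In bulk RNA, a gene read in few cells and a gene read at a low level in each cell cannot be told apart.

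The promoters of FOXA1, KRT8 and HNF4A are shown as RefSeq gives them for GRCh38.p14, 5′ to 3′ on the gene's strand. They run from 250 bases before the listed start to 50 bases after it, with each CG dinucleotide in capitals. The FOXA1 promoter (chr14:37595200-37595499, minus strand) held 34 CG dinucleotides, the KRT8 promoter (chr12:52926420-52926719, minus strand) held 2, and that of HNF4A (chr20:44355449-44355748, plus strand), the nuclear receptor with the highest level here, held 11.
FOXA1: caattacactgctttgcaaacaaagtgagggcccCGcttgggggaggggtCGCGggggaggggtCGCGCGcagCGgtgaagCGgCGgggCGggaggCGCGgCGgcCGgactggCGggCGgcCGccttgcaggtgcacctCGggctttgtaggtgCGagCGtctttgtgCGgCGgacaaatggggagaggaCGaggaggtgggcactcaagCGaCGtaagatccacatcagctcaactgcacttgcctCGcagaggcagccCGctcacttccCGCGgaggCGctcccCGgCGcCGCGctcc
KRT8: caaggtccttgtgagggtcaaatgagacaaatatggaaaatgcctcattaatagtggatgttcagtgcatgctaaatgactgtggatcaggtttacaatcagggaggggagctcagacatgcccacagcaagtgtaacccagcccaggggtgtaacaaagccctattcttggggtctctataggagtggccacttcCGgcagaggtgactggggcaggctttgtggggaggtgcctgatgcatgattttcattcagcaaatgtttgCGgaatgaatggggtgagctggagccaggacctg
HNF4A: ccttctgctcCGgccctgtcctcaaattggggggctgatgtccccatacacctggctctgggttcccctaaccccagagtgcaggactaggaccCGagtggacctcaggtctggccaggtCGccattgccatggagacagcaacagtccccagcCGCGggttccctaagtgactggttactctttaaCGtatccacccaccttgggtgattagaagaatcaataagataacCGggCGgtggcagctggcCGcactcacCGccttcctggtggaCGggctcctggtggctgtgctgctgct
The listed start is that of 1 RefSeq transcript, and a gene can be read from another start.

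The ratio of observed to expected CG dinucleotides is a usual measure of how far a promoter has the composition of a CpG island. It was 0.966 for FOXA1, 0.111 for KRT8 and 0.409 for HNF4A. Chromosome 8 was left out of the promoter count, and 13613 of the other 16527 known genes (82.4%) had a promoter. The median ratio was 0.409 over the 2524 genes under 0.1 FPKM and 0.623 over the 1658 genes from 0.1 to under 1 FPKM. It was 0.829, 0.863 and 0.865 in the 3 classes above, so the medians climbed over the lower classes and the 2 highest classes were close. A ratio of at least 0.6 was found in 37.96% of the genes under 0.1 FPKM and in 88.02% of those of at least 100 FPKM. At their listed starts, FOXA1 and KRT8 thus stood far from the median of their own class of level, on opposite sides. HNF4A also stood below that of its class. The ratio was near the class median for ESR1 at 0.41, GATA3 at 0.584 and ERBB2 at 0.873. Whether KRT8 is read from its listed start in these cells was not tested. A promoter was found for 77.6% of the genes in the lowest class and 86.9% of those from 10 to under 100 FPKM, so the classes are not covered alike.

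**Figure D1:**
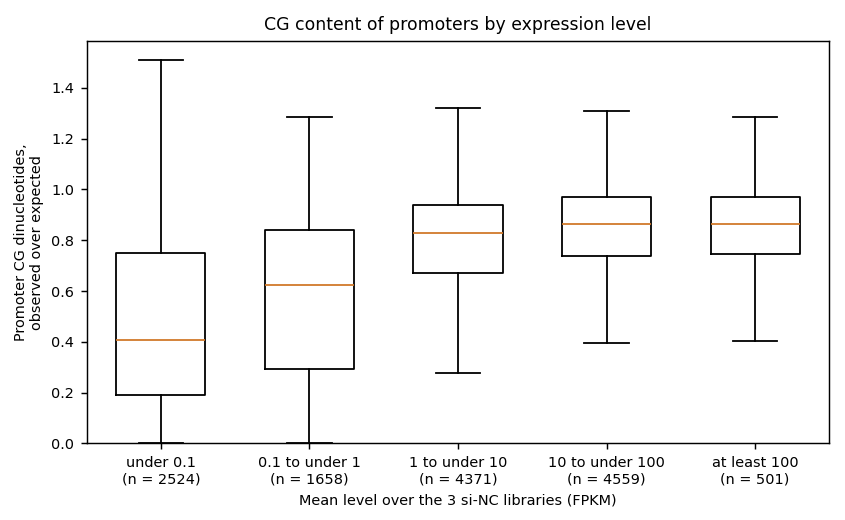
Box plots of the ratio of observed to expected CG dinucleotides in the promoter (vertical axis, no unit) for known genes grouped by their mean level over the 3 si-NC libraries (horizontal axis, FPKM). The line is the median, the box the middle 50% of genes, the whiskers reach 1.5 box lengths at most and points beyond are not drawn; the median is 0.409 in the lowest class and 0.865 in the highest.

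A TATA box is a short motif of many strongly read genes, and the letters TATAAA were searched on both strands. They occurred in 7.76% of all promoters, in 15.5% of those of genes under 0.1 FPKM, in 4.23% from 10 to under 100 FPKM and in 11.4% of those of at least 100 FPKM, so both ends of the range held more than its middle. S100A4, a calcium-binding protein gene that stood at 751, 750.2 and 712 FPKM, is among the last, and its promoter (chr1:153545757-153546056, minus strand) is shown with TATAAA in capitals, which starts at base 220 of the 300. A match is a description of the letters, not evidence of a site in use.
S100A4: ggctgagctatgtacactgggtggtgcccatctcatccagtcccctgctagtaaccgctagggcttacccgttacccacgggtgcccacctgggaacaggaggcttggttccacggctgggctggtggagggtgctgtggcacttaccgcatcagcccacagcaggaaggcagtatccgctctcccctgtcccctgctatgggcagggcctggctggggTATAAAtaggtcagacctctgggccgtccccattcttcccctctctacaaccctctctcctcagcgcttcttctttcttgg

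The depth was read from the smallest differences among low FPKM values and came to 27.7, 25.7 and 27.2 M fragments. Of the 17089 known genes, 11464 (67.1%) reached the limit of 1 FPKM, 6005 of at least 10 FPKM and 604 of at least 100 FPKM, 3390 lay under 0.1 FPKM, 761 were listed at 0 in all 3 libraries, and the median was 4.75 FPKM. The 100 highest genes held 42.4 ± 0.355% of the summed FPKM of known genes. With ribosomal protein and MTRNR2L genes left out, the 100 highest of the remaining genes held 26.9% of the remaining sum. The 85 ribosomal protein genes alone held 28.7 ± 0.356%. Among the 25 highest genes were GAPDH, a glycolytic enzyme gene, at 7308 ± 203 FPKM, EEF1A1, a translation elongation factor gene, at 4825 ± 26.5 FPKM, FTH1, which encodes ferritin heavy chain, at 3588 ± 125 FPKM, and TMSB10, which encodes an actin-binding thymosin, at 2648 ± 71.3 FPKM. The highest of all was MTRNR2L2 at 8243 ± 101 FPKM, and MTRNR2L8 stood at 3850.2 ± 97.6 FPKM. Both genes are nuclear copies resembling the mitochondrial ribosomal RNA gene, which was not analysed here, and 42.1% and 24.9% of the 50-base windows of their longest GENCODE v29 transcripts occur in other genes. For MTRNR2L2 that transcript has 87 bases, while the table gives the gene 1036 bases, so its share covers a small piece of the gene. KRT8 was the only gene of the 25 from the keratin family, and RPL19, a ribosomal protein gene and the last of the 25, stood at 2469.5 ± 66.8 FPKM.

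Of the luminal and apocrine transcription factors, 7 of 13 were detected, with a median of 1.72 FPKM beside 4.75 FPKM over all known genes. The levels ran from XBP1 down to the 3-fragment limit. XBP1, a factor of the secretory pathway, stood at 87.4, 87.4 and 89.5 FPKM. ELF3 and EHF, epithelial ETS factors, stood at 76.2, 71.1 and 73.01 and at 42.8, 47.6 and 45.1 FPKM. These 3 genes were each clear of the next in order in every library. MYB stood at 10.4 ± 0.242 FPKM, CREB3L4 at 7.03 ± 0.3 FPKM, TBX3 at 2.36 ± 0.085 FPKM and TFAP2C, an AP-2 factor, at 1.72 ± 0.0404 FPKM. GATA3, the defining factor of luminal mammary epithelium, stood at 0.44, 0.45 and 0.41 FPKM, or an estimated 36, 34 and 33 fragments, which is above the 3-fragment limit and below detection. TFAP2A at 0.76, 0.81 and 0.64 FPKM and SPDEF at 0.87, 0.74 and 0.57 FPKM, a factor of secretory epithelium, overlapped in range. GRHL2, a grainyhead factor of epithelia, stood at 0.06, 0.13 and 0.09 FPKM and TRPS1, a repressor of the GATA type, at 0.01, 0.01 and 0 FPKM. TRPS1 and FOXA1 could not be ordered, since their ranges meet. TFAP2B was not analysed here.

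The paralogs of FOXA1 and GATA3 were looked at after their values had been seen. Of the 37 forkhead genes, 22 were detected (59.5%, beside 67.1% of all known genes), and the other FOXA genes were among the highest. FOXA2, a forkhead factor of endoderm, stood at 41.97, 39.7 and 42.2 FPKM. FOXA3, a factor of liver and gut, stood at 27.3, 26.3 and 26.8 FPKM. The FOXA1 values amount to at most 1 fragment, so no ratio to them is given. FOXQ1 was the highest forkhead gene at 67.7 ± 3.49 FPKM, and FOXM1, a factor of dividing cells, stood at 25.1 ± 0.341 FPKM. Of the 6 GATA genes, 2 were detected, GATA6 at 1.97, 1.74 and 2.35 FPKM and GATA2 at 1.57, 1.72 and 1.79 FPKM, both above GATA3 in every library. Of the 16 SOX genes, 8 were detected, led by SOX9 at 60.2 ± 3.08 FPKM and SOX4 at 50.6 ± 1.22 FPKM, and SOX2, a factor of stem cells and foregut, stood at 11.9, 12.5 and 12.2 FPKM.

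FOXA2 led to a list of 33 genes known from the gut and other endodermal epithelia, written after values had been seen, so its count describes the libraries and is no independent evidence. Of these, 26 were detected (78.8%, beside 67.1% of all known genes) and 11 reached 10 FPKM, with a median of 2.54 FPKM. HNF4A, the nuclear receptor that directs gut and liver epithelium, on chromosome 20 from 42984441 to 43061485 of GRCh37, stood at 52.9, 52.9 and 53.3 FPKM. VIL1, which encodes villin, an actin-bundling protein of microvilli, stood at 119, 119 and 119.9 FPKM. CDX2, the homeobox factor of intestinal epithelium, stood at 8.63, 7.58 and 8.1 FPKM. ASCL2, a factor of intestinal stem cells, stood at 32.3, 27.8 and 28.4 FPKM, and LGR5, a receptor of the same cells, at 3.55, 4.2 and 4.1 FPKM. KLF5 stood at 135, 138 and 137 FPKM and TFF3, a trefoil peptide of mucosal surfaces, at 131, 110.5 and 110.5 FPKM. PHGR1, a short histidine- and glycine-rich protein gene, stood at 22.99 ± 1.98 FPKM. Other members were low or absent: CDX1, a paralog of CDX2, was listed at 0, 0 and 0.02 FPKM, GATA4 at 0, 0 and 0.01 FPKM, KRT20, a keratin of differentiated gut epithelium, at 0.21, 0.25 and 0.28 FPKM and MUC2, the gel-forming mucin of goblet cells, at 0.28, 0.25 and 0.34 FPKM. No cell type is given to the libraries from this list.

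**Figure D2:**
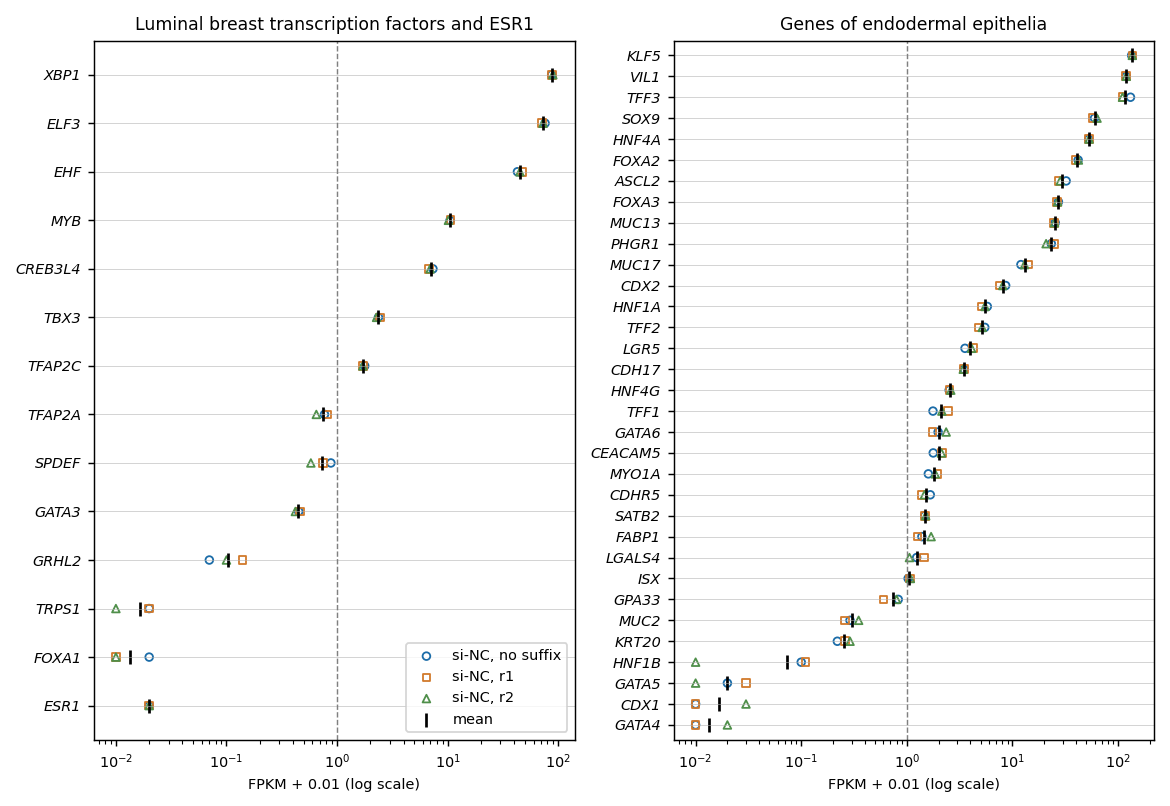
Levels of the luminal mammary transcription factors with ESR1 (left) and of the genes of endodermal epithelia (right), in FPKM + 0.01 on a log axis, so that a gene listed at 0 lies at 0.01. Open symbols are the 3 si-NC libraries, black ticks their mean and the dashed line the detection limit of 1 FPKM; FOXA1 and ESR1 lie at the left edge, while HNF4A, FOXA2 and VIL1 lie above 39 FPKM in every library.

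Position in the body is recorded in HOX genes. Of the 37 HOX genes with a value, seen after the fact, 26 were detected, with a median of 3.96 FPKM. That is 70.3%, near the 67.1% of all known genes. HOXA9 was the highest at 38.5, 37.7 and 36.05 FPKM, followed by HOXC10 at 32.5, 32.7 and 31.7 FPKM and HOXB6 at 25.5, 25.3 and 25.3 FPKM, and these 3 did not overlap.

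Nuclear receptors are transcription factors switched by hormones, lipids or metabolites. Of these, 27 of 44 were detected (61.4%, near the 67.1% of all known genes), 13 of them at 10 FPKM or more. The order ran HNF4A, PPARG, NR2F6, ESRRA, NR4A1. PPARG, the fatty acid receptor of adipocytes and several epithelia, stood at 38.1, 39.8 and 35.6 FPKM, below HNF4A in every library. NR2F6, an orphan receptor, at 36.6, 32.5 and 34.97 FPKM overlapped with PPARG, and ESRRA, the oestrogen-related receptor alpha, at 33.6, 28.7 and 30.5 FPKM overlapped with NR2F6. NR4A1, an immediate early gene, stood at 24.96, 23.9 and 24.8 FPKM, clear of both its neighbours in order. From NR1H2, an oxysterol receptor, at 15.8 ± 1.19 FPKM down to NR1H3, its paralog, at 13.2 ± 0.179 FPKM, each gene overlapped with the next. The receptors of retinoids and of vitamin D were detected, RARA at 13.4 ± 0.323 FPKM, RXRA at 11.1 ± 0.175 FPKM and VDR at 5.26 ± 0.125 FPKM.

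The steroid receptors with values given here were below detection. Besides ESR1, ESR2 stood at 0.12, 0.07 and 0.1 FPKM, NR3C1, the glucocorticoid receptor, at 0.06, 0.12 and 0.1 FPKM and NR3C2, the mineralocorticoid receptor, at 0.01, 0.05 and 0.04 FPKM. These 4 steroid receptors were thus under 0.2 FPKM in every library, and PGR, the progesterone receptor, was not analysed here.

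**Figure D3:**
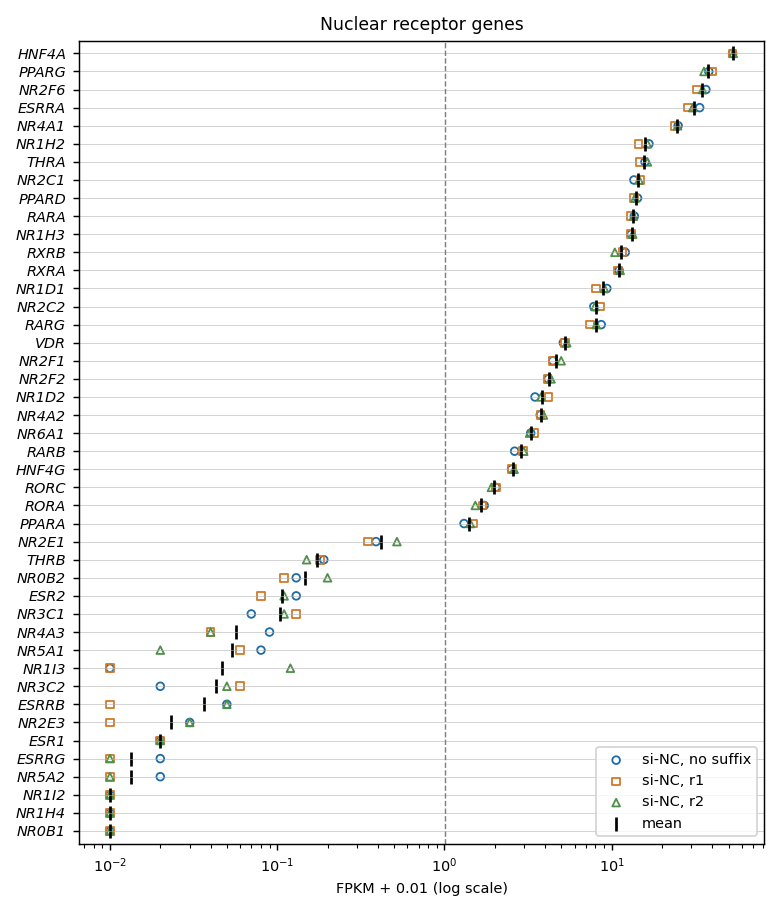
Levels of the 44 measured nuclear receptor genes, ordered by their mean, in FPKM + 0.01 on a log axis, so that a gene listed at 0 lies at 0.01. Open symbols are the 3 si-NC libraries, black ticks their mean and the dashed line the detection limit of 1 FPKM; 27 genes lie right of it and ESR1, ESR2, NR3C1 and NR3C2 lie left of it.

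Of the genes that accompany an active oestrogen receptor, 9 of 14 were detected (64.3%, close to the 67.1% of all known genes), with a median of 1.8 FPKM. In this list, 3 genes reached 10 FPKM and 2 of them reached 100 FPKM. IGFBP4, an insulin-like growth factor binding protein, stood at 146, 135 and 141 FPKM, and STC2, a secreted glycoprotein, at 19.4, 20.2 and 20.2 FPKM. TFF1, the classical oestrogen target, stood at 1.76, 2.46 and 2.14 FPKM, GREB1, a cofactor of the receptor, at 0.5, 0.5 and 0.39 FPKM and BCL2, an inhibitor of apoptosis, at 0.17, 0.11 and 0.13 FPKM. Among apocrine and hormone-responsive genes, 9 of the 19 measured genes were detected, with a median of 0.19 FPKM. SORD, sorbitol dehydrogenase, stood at 51.6, 52.4 and 52.1 FPKM, TMPRSS2, a membrane serine protease, at 22.4, 23.4 and 24.2 FPKM, FKBP5, a co-chaperone, at 12.5, 13.4 and 12.5 FPKM and KLK3, which encodes prostate-specific antigen, at 4.63, 4.94 and 4.76 FPKM. The other 10 were below detection, among them CYP4Z1, which was listed at 0 in all 3 libraries. CYP4X1 stood at 0.04, 0.04 and 0.02 FPKM and ABCC11 at 0.11, 0.11 and 0.13 FPKM. PRLR, the prolactin receptor, stood at 0, 0.03 and 0 FPKM and ALOX15B at 0.17, 0.14 and 0.26 FPKM. The kallikreins, looked at after the fact, had 6 of 15 genes detected, led by KLK6 at 69.4, 66.3 and 67.5 FPKM, which was above KLK3 in every library.

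Receptor tyrosine kinases carry growth signals across the membrane. Of these, 28 of 54 were detected (51.9%, beside 67.1% of all known genes), with a median of 1.15 FPKM. EPHA2, an ephrin receptor of epithelia, was the highest at 132, 121 and 129 FPKM, and PTK7, a pseudokinase of planar cell polarity, followed at 68.4, 64.9 and 67.8 FPKM. ERBB3, the partner of ERBB2 that has little kinase activity of its own, was the third at 46.4, 49.8 and 48.2 FPKM, clear of its neighbours in order. EPHB6 at 33.02 ± 0.816 FPKM and FGFR4, a fibroblast growth factor receptor, at 33.05, 31.1 and 31.6 FPKM overlapped, as did MET, the hepatocyte growth factor receptor, at 27.1, 31.1 and 29.6 FPKM and its paralog MST1R at 29.5, 27.5 and 28.3 FPKM. ERBB2 was the ninth, clear of DDR1, a collagen receptor, above it at 23.9 ± 0.256 FPKM and of RYK below it at 15.6 ± 0.794 FPKM. ERBB3 was 2.73 ± 0.139 times ERBB2. EGFR stood at 0.73, 1.04 and 0.67 FPKM, ERBB4 was listed at 0 in all 3 libraries, and so were PDGFRA and KDR. AXL, a receptor often found in mesenchymal cells, stood at 13.6, 13.9 and 13.2 FPKM. Of the ligands of these ERBB receptors, 5 of 10 were detected, AREG (amphiregulin) at 20.9, 21.4 and 22.8 FPKM, HBEGF at 17.01, 16.2 and 16.1 FPKM, EREG (epiregulin) at 3.3, 3.64 and 3.42 FPKM, TGFA at 2.7 ± 0.431 FPKM and NRG4 at 1.77 ± 0.131 FPKM, while EGF stood at 0.01, 0 and 0 FPKM.

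ERBB2 lies on chromosome 17 among genes that are gained with it in ERBB2-amplified tumours. ERBB2 was 2.14, 1.9 and 1.98 times the median of its 15 neighbours, and on average 1.14 times their mean. The ratio thus depended on how the neighbours were summarised. Of the neighbours, 6 were below detection, from TCAP at a mean of 0.62 FPKM downwards, and they lower both summaries. GRB7, an adaptor of ERBB2 signalling, stood at 71.3, 64.8 and 67.3 FPKM, 3.84 ± 0.14 times ERBB2. PSMD3, a proteasome subunit, stood at 53.2 ± 1.97 FPKM, MIEN1 at 27.3 ± 1.39 FPKM, ORMDL3, a regulator of sphingolipid synthesis, at 24.2 ± 0.466 FPKM and STARD3, a cholesterol transporter, at 19.6 ± 1.52 FPKM, all above ERBB2 in every library. PGAP3, a remodeller of membrane anchors, was the lowest of the detected neighbours at 3.82 ± 0.231 FPKM. These are levels of RNA, and no copy number was measured.

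**Figure D4:**
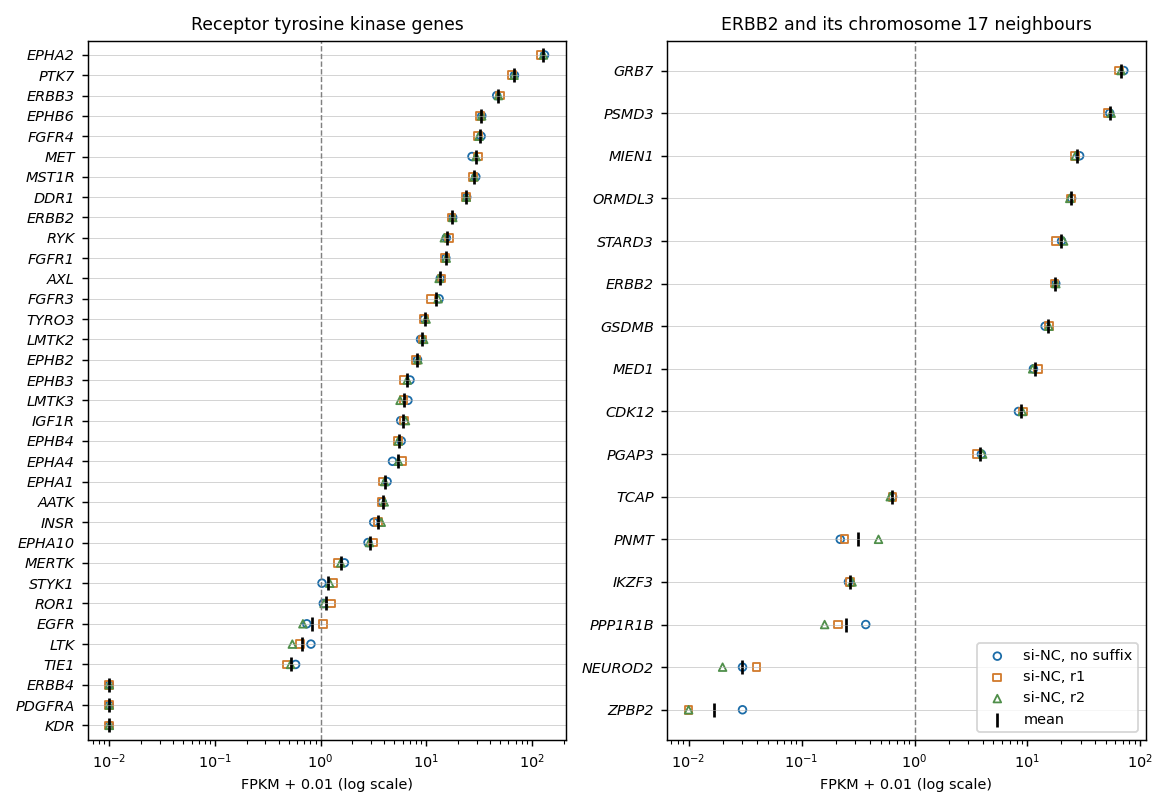
Levels of receptor tyrosine kinase genes (left, those with a mean of at least 0.5 FPKM and 3 genes listed at 0) and of ERBB2 with its neighbours on chromosome 17 (right), in FPKM + 0.01 on a log axis, so that a gene listed at 0 lies at 0.01. Open symbols are the 3 si-NC libraries, black ticks their mean and the dashed line the detection limit of 1 FPKM; EPHA2 leads the kinases and GRB7, not ERBB2, leads the neighbours.

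Keratins are the intermediate filament proteins of epithelia, and each type of epithelium has its own pairs. Of the 44 keratin genes, 16 were detected (36.4%, beside 67.1% of all known genes) and 21 lay under 0.1 FPKM, with a median of 0.118 FPKM. KRT8, KRT18 and KRT19, the keratins of simple epithelia, held 97.4 ± 0.0257% of the summed keratin level. KRT19 stood at 1251, 1095 and 1193 FPKM. Their ranges did not overlap: KRT8 was 1.49 ± 0.0155 times KRT18, and KRT18 was 2.07 ± 0.0683 times KRT19. KRT8 was 0.495 ± 0.00998 times GAPDH. KRT8 and KRT18 overlap each other at their ends on chromosome 12, on opposite strands, and no source used here says whether strand was kept. They also have many processed copies in the genome, and 22.1% and 21.7% of their 50-base windows occur in transcripts of other genes, beside 1.79% for KRT19, so the first pair is less certain.

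The next keratins were far lower. KRT80 stood at 61.97, 60.4 and 61.6 FPKM and KRT7, a simple keratin of ducts and glands, at 47.7, 42.5 and 45.8 FPKM. The hair keratins KRT86 at 21.9, 18.3 and 20.1 FPKM and KRT81 at 12.8, 10.7 and 10.3 FPKM share 33.3% and 38.4% of their windows with each other, so the split between them is uncertain. Of the keratins of basal cells, KRT15 stood at 10.6, 10.2 and 10.8 FPKM and KRT17 at 10.2, 9.76 and 8.56 FPKM, while KRT5 stood at 0.58, 0.39 and 0.63 FPKM and KRT14 at 0.12, 0.13 and 0.05 FPKM.

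**Figure D5:**
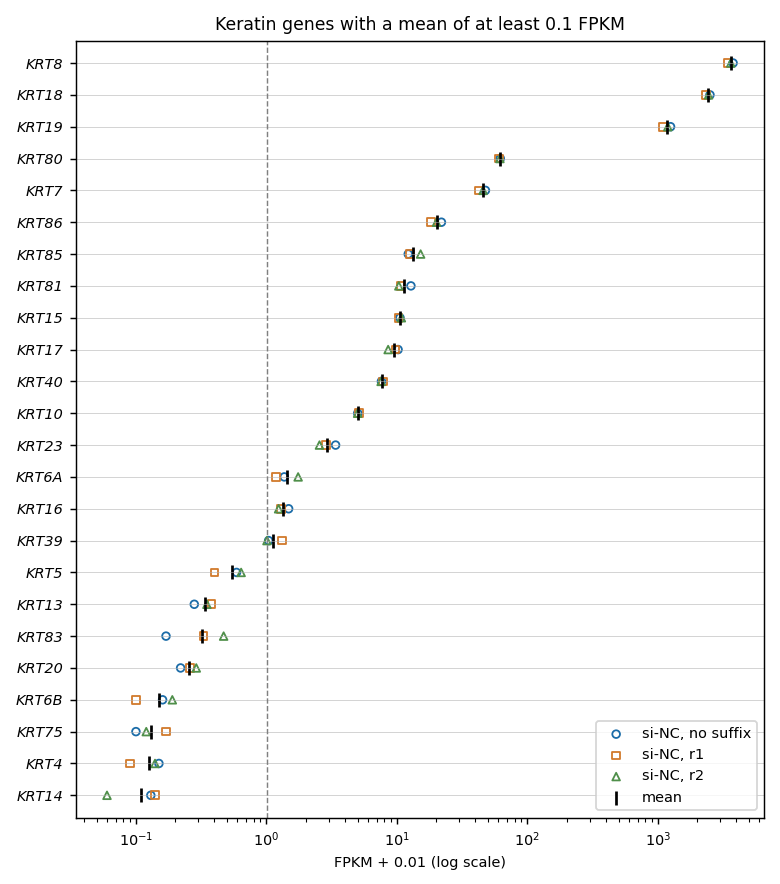
Levels of the keratin genes that averaged 0.1 FPKM or more, ordered by their mean, in FPKM + 0.01 on a log axis. Open symbols are the 3 si-NC libraries, black ticks their mean and the dashed line the detection limit of 1 FPKM; KRT8, KRT18 and KRT19 lie above 1000 FPKM and every other keratin lies under 100 FPKM.

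Among the other basal and myoepithelial genes, the parts of the hemidesmosome and its laminin were high. ITGB4 and ITGA6, the subunits of the integrin that binds laminin, stood at 179, 168 and 185 and at 126, 139 and 135 FPKM, and LAMB3, a chain of that laminin, at 84.2, 78.5 and 83.2 FPKM. MME, a membrane protease also known as CD10, stood at 35.1 ± 1.92 FPKM and CAV1, which encodes caveolin, at 34.5 ± 0.966 FPKM. TP63, the factor that defines basal cells, stood at 0.13, 0.1 and 0.12 FPKM, and the smooth muscle genes of myoepithelium were low, ACTA2 at 1.25, 0.77 and 0.98 FPKM and MYLK at 0.22, 0.4 and 0.22 FPKM. In all, 13 of the 22 measured genes were detected (59.1%, beside 67.1% of all known genes), with a median of 1.7 FPKM. The alveolar list had 1 of 4 genes detected, ALDH1A3 at 14.1, 14.01 and 14.9 FPKM, while ELF5, the alveolar factor, stood at 0, 0.02 and 0.04 FPKM and KIT at 0.01, 0.02 and 0.05 FPKM.

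Epithelial adhesion genes were nearly all detected, 26 of 27, with a median of 42.1 FPKM. EPCAM, the epithelial cell adhesion molecule, stood at 287, 291 and 289 FPKM, clear of the catenin genes CTNNA1 at 215 ± 3.28 FPKM and CTNNB1 at 144 ± 3.41 FPKM. CDH1, which encodes E-cadherin, stood at 84.7, 88.2 and 86.9 FPKM. CLDN4, a tight junction claudin, stood at 99.5 ± 7.47 FPKM and ESRP1, an epithelial splicing factor, at 57.6 ± 1.66 FPKM. The exception was RAB25, a small GTPase of epithelial recycling, at 0.11, 0 and 0.21 FPKM, an estimated 3, 0 and 6 fragments.

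Of the mesenchymal genes, 8 of 15 were detected (53.3%, beside 67.1% of all known genes), with a median of 1.63 FPKM beside 4.75 FPKM. S100A4 has been given above. VIM, which encodes vimentin, the intermediate filament of mesenchymal cells, stood at 391, 366 and 376 FPKM, 4.37 ± 0.235 times CDH1. TGFBI, an extracellular matrix protein, stood at 120.5, 122 and 120.5 FPKM and SNAI1, a repressor of E-cadherin, at 13.3, 11.7 and 12.6 FPKM. ZEB1, another such repressor, stood at 4.25, 4.39 and 4.24 FPKM, while its paralog ZEB2 stood at 0.01, 0 and 0.01 FPKM. CDH2, which encodes N-cadherin, stood at 0, 0.01 and 0 FPKM and FN1, fibronectin, at 1.47, 1.74 and 1.69 FPKM. The S100 family, seen after the fact, had 12 of 15 genes detected and a median of 90.3 FPKM, and S100A6 at 914, 866 and 842 FPKM was above S100A4 in every library.

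Of the secreted products, 22 of 34 were detected (64.7%, near the 67.1% of all known genes), with a median of 11.02 FPKM. The highest were B2M, the light chain of MHC class I, at 322, 334 and 312 FPKM, TIMP1, an inhibitor of matrix proteases, at 255, 241 and 238 FPKM and MDK, the growth factor midkine, at 253, 226 and 236 FPKM, and the last pair overlapped. CST3, a cysteine protease inhibitor, stood at 214, 184 and 201 FPKM, GDF15, a stress cytokine, at 165, 144 and 168 FPKM and CTSD, the lysosomal protease cathepsin D, at 107, 99.2 and 105 FPKM. AZGP1, a zinc-binding glycoprotein of apocrine glands and other epithelia, stood at 63.9, 64.1 and 61.5 FPKM. NUCB2, WFDC2 and SLPI were detected as well, with means of 33.4, 17.9 and 10.9 FPKM. Below detection were 12 genes of the list. Of these, SCGB2A1 and MUCL1 were listed at 0 in all 3 libraries. LTF, lactoferrin, stood at 0.05, 0.02 and 0.06 FPKM and APOD at 0.17, 0.15 and 0.28 FPKM. For the short transcripts of SCGB2A1 and MUCL1, 3 fragments amount to 0.271 and 0.29 FPKM in the shallowest library. PIP, SCGB2A2 and the milk protein genes were not analysed here.

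Mucins coat epithelial surfaces, and 4 of 13 were detected. The membrane mucins MUC13 at 25.4, 24.9 and 25.04 FPKM and MUC17 at 12.04, 14.1 and 13.03 FPKM belong to gut epithelium, and MUC1, the membrane mucin of mammary and other glands, stood at 12.97, 12.1 and 13.5 FPKM, which overlapped with MUC17. The gel-forming mucins were low, MUC5AC at 0.4, 0.4 and 0.49 FPKM, MUC6 at 0.12, 0.13 and 0.12 FPKM and MUC5B at 0.06, 0.04 and 0.05 FPKM, and MUC16 was listed at 0 in all 3 libraries.

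Markers of other cell types were low in the endothelial list and mixed in the others. Of the immune list, 1 of 9 genes was detected, LYZ (lysozyme) at 7.4, 7.43 and 6.66 FPKM, and PTPRC, which encodes CD45, was listed at 0 in all 3 libraries. The summed level of the immune list lay between 7.59 and 8.48 FPKM. Of the endothelial list, 0 of 8 were detected, with a summed level of 1.14 to 1.21 FPKM and KDR at 0. Of the fibroblast list, 2 of 8 were detected, LUM (lumican) at 5.56, 6.29 and 5.4 FPKM and COL1A1 at 4.12, 3.49 and 3.89 FPKM, while COL1A2, the partner chain of COL1A1, stood at 0.01, 0.02 and 0.01 FPKM and PDGFRA was listed at 0. The list for liver, blood, muscle, neurons and other tissues had 8 of 18 genes detected, TTF1 among them. They included PAX8, a factor of thyroid, kidney and the female reproductive tract, at 11.7, 12.4 and 12.3 FPKM, NKX2-1, a factor of lung and thyroid, at 2.12, 1.84 and 2.13 FPKM, and SYP, which encodes the vesicle protein synaptophysin, at 3.62, 3.11 and 3.85 FPKM. TTF1, at 7.5, 7.56 and 7.9 FPKM, is by this symbol the widely used transcription termination factor of RNA polymerase I and not a tissue marker, so it should not be counted as one. ALB, albumin, stood at 0.02, 0 and 0 FPKM and TG, thyroglobulin, at 0.01, 0 and 0.01 FPKM.

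Growth control genes were mostly detected, 27 of 31, with a median of 13.1 FPKM. CDKN2A, which encodes the cell cycle inhibitors p16 and ARF, had the highest mean and stood at 143, 118 and 136 FPKM. RB1, a brake on entry into the cell cycle, stood at 11.8, 12.3 and 12.4 FPKM. Of the oncogenes, MYC stood at 81.6, 81.03 and 83.5 FPKM and CCND1, which encodes cyclin D1, at 41.4, 41.9 and 43.1 FPKM, while CCND2 stood at 0.1, 0.06 and 0.1 FPKM. BCL2L1, the survival gene of the BCL2 family, stood at 132, 126 and 129 FPKM, against the BCL2 values given above. The range of BCL2L1 overlapped with that of CDKN2A, and BCL2L1 was above CDKN2A in r1. MKI67, a marker of dividing cells, stood at 33.9, 35.9 and 35.4 FPKM.

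Of the genes that the study followed and their paralogs, 13 of 14 were detected, the exception being BCL2, given above. MARK4, a kinase of the microtubule affinity-regulating family, stood at 9.88, 9.48 and 9.79 FPKM, below its paralogs MARK2 at 25.2, 25.3 and 26.1 FPKM and MARK3 at 19.9, 20.9 and 20.9 FPKM and above MARK1 at 1.55, 1.47 and 1.27 FPKM, with no overlap among the 4. YY1, a zinc finger factor, stood at 22.9, 23.2 and 25.01 FPKM. YAP1, the coactivator of the Hippo pathway, stood at 41.3, 44.7 and 43.2 FPKM, 7.91 ± 0.282 times WWTR1, which encodes the coactivator TAZ and stood at 5.27, 5.43 and 5.63 FPKM. Of their DNA-binding partners, TEAD4 stood at 48.9, 47.8 and 47.6 FPKM and TEAD1 at 33.01, 36.1 and 34.9 FPKM, both above TEAD3 at 8.4 ± 0.0777 FPKM and TEAD2 at 7.34 ± 0.31 FPKM.

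The spread between the 3 libraries was small. Pearson's r of log2(FPKM + 1) between pairs of libraries, across the 17089 known genes, which are not independent replicates, lay between 0.9984 and 0.9989. Over the 6005 genes of at least 10 FPKM, the median coefficient of variation was 3.66%, against 2.13% from counting error alone at the estimated depth. It was above 10% in 157 genes and above 20% in 6, which became 17 when library r2 was left out. The 10 most variable genes had no common library: ARHGEF1, a guanine nucleotide exchange factor gene, stood at 7.13, 14.9 and 8.24 FPKM and was high in r1, SLC37A4, the glucose-6-phosphate transporter, stood at 15.8, 6.97 and 16.7 FPKM and was low in r1, and AGAP6 stood at 12.5, 11.7 and 6.91 FPKM and was low in r2. AGAP6 shares 66.3% of its windows with other genes, so its fragments could be split. Whether this bears on its spread was not tested. ACTG1, a cytoplasmic actin gene, was the most abundant of the 10 at 77.4, 103 and 114 FPKM, lowest in the library with no suffix. It shares 3.58% of its windows with other genes.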

How the data were processed

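RNA was sequenced on the BGISEQ-500 platform. The authors deposited 1 table with FPKM per gene and library, rounded to 2 decimals; how fragments were assigned to genes is not given in the sources used here. The submitters' processing notes name Bowtie2 version 2 and the build GRCh37.p13, and coordinates are those of the table. The FPKM columns of the 6 other libraries and the authors' columns of log2 ratios, p-values and q-values between groups were not used, and 4 lines without values were left out. The members and lists were chosen with earlier results of these data known. Genes were named if they were in these lists, were keratins, were among the 25 highest or among the 10 most variable of at least 10 FPKM, and any other was chosen after its values were seen. LINC00673 and some other genes are not reported here.

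Means, SDs, shares and order were computed in Python 3.11.15 with pandas 2.3.3 and numpy 2.4.6, and figures drawn with matplotlib 3.10.9. There was 1 group, so no test was run. Genes are called apart where their 3 values did not overlap. Depth was the number of fragments that brings the FPKM under 0.35 of genes with 1 transcript of 300 to 900 bases nearest to whole fragments, with a length offset fitted between 90 and 95 bases. On 3 simulated libraries its error was at most 0.909%, and it covers counting error only. The simulated FPKM were made with the same length formula that the estimate uses. How well that formula holds for the deposited FPKM was not tested. Fragments per gene use the longest transcript. Shared sequence was counted in 50-base windows of GENCODE v29 transcripts, and promoters were matched by gene ID. Alternatives were each library left out, other detection limits, other totals, the median in place of the mean and another pseudocount.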

Additional observations from a re-analysis of the deposited data

How the results depend on the processing

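Leaving out 1 of the 3 libraries cannot move a mean by more than their SD, so this check decides nothing for shares, ratios and levels. For counts, a change of more than 1.5 times was taken as a move. The detected genes ran from 11462 to 11473 and did not move. The number of genes of at least 10 FPKM with a coefficient of variation above 20% did. That number, 6 over all libraries, ran from 5 to 17. It was 171 over genes of at least 1 FPKM and 3638 with no limit. The share of the 100 highest genes, 42.4%, was 39.9% of a total with predicted genes. Without ribosomal protein and MTRNR2L genes, the 100 highest of the remaining genes held 26.9% of the remaining sum. ERBB2 was 1.14 times the mean of its neighbours. The lowest Pearson's r was 0.9962 with log2(FPKM + 0.1). The 11464 detected genes became 13699, 12234 and 8410 with limits of 0.1, 0.5 and 5 FPKM, 11309 with 1 FPKM in every library and 11638 in any. Rescaling each library to the same total for known genes multiplied every level by 1.9958 to 2.05. A median always lies within 1 SD of its mean, so taking the median was no check of the 15 named levels. No paired analysis was possible because the result comes from no test and 1 group was described. Levels under the FPKM of 3 fragments cannot be told from 0, and genes sharing sequence with copies are uncertain.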
